A study of Oryctolagus cuniculus with 8 samples.

Results

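The miRNAs of the miR-10 and miR-196 families, whose genes lie among the HOX genes, were followed through the extracellular vesicles of rabbit oviductal and uterine fluid. Members were all names of miR-10a, miR-10b, miR-196a, miR-196b, miR-196c or miR-615 in the deposited table, both arms included, with 1 row kept per name. This gave 10 names of 579 in all, and neither miR-196c nor miR-615 was among the names. Of the 10, 7 had at least 1 read, and the 3p arms of miR-196a, miR-196a-2 and miR-196b had none in any library. The 7 were ocu-miR-10a-5p, ocu-miR-10a-3p, ocu-miR-10b-5p, ocu-miR-10b-3p, ocu-miR-196b-5p, ocu-miR-196a-5p and its double, ocu-miR-196a-2-5p, and the prefix for the rabbit is left out below. The double carried the same reads as miR-196a-5p in every library and is not described again, which leaves 6 profiles. All 6 passed the filter on low counts, as did 178 of all names.

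The does were wild-type California x New Zealand white rabbits, all primed with the gonadotropin eCG (25 IU). Ovulation was then triggered in each with a GnRH analogue, at a dose of 20 µg and an interval of 48 h. Their tracts were taken 14 to 15 h after that injection, so neither group is untreated and no other stage was sampled. The 5 oviductal libraries each pool vesicles of 3 animals from flushes of 1 mL, and the 3 uterine libraries each pool those of 5 animals from flushes of 2.2 mL. The pools hold 30 places for 21 does, so some does must be in more than 1 pool, and which pools share them is not known here. The tests treat the pools as independent, and p-values measure the spread between pools. The labels number the uterine libraries 12, 3 and 4.

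MicroRNAs are short RNAs that pair through their 5′ end (the seed) with messenger RNAs and lower their output. HOX genes are transcription factors laid out in clusters in the order in which they act along the body axis, and members of the A cluster pattern the female tract, with HOXA9 known from the oviduct and HOXA10 from the uterus. The miR-10 and miR-196 genes sit inside these clusters and are known to target HOX messengers, among them HOXD10 for miR-10b and HOXB8 for miR-196a. In the RefSeq annotation of the rabbit assembly mOryCun1.1, all 5 precursors of the members were found by name. The precursor mir-10a lies between HOXB4 and HOXB5, within the span of the HOXB3 gene, and mir-10b lies between HOXD3 and HOXD8, within the span of HOXD4. The 2 copies that give miR-196a are mir-196a-1, between HOXB7 and HOXB13 and within the spans of HOXB8 and HOXB9, and mir-196a-2, between HOXC10 and HOXC9. The precursor mir-196b lies between HOXA9 and HOXA10. That assembly is not the build of the study, so only the order of genes was taken from it.

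The libraries held 42684 to 569087 miRNA reads. Oviductal replicates 2 and 3 were the shallowest, and there 3 reads, the floor used here for detection, stood for 63.0 and 70.3 CPM, the reads of a miRNA scaled to a library total of 1000000. The floor lay between 5.27 and 12.9 CPM in the other 6 libraries. A non-member, miR-148a-3p, took 27.1% to 37.0% of oviductal reads and 47.6%, 54.4% and 29.2% in uterine replicates 12, 3 and 4. The share left for every other miRNA therefore differed between libraries, and TMM scaling, which aligns the bulk of the miRNAs, gave factors from 0.666 in uterine replicate 3 to 1.29 in oviductal replicate 3.

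The 5p arms of miR-10a and miR-10b were among the most abundant miRNAs in both fluids, and both had higher levels in uterine vesicles, by about the same factor, without passing the threshold. miR-10a-5p held 1.36%, 2.65%, 3.07%, 2.83% and 3.20% of reads in oviductal replicates 1 to 5. It held 5.08%, 2.25% and 5.54% in uterine replicates 12, 3 and 4. Uterine replicates 12 and 4 stood above every oviductal library in this share, and uterine replicate 3 stood within the oviductal range. miR-10b-5p held 1.41%, 2.54%, 3.40%, 3.26% and 3.12% in the oviductal libraries in the same order. It held 4.96%, 2.84% and 7.64% in uterine replicates 12, 3 and 4. The order of the libraries was similar for both, with oviductal replicate 1 the lowest of all 8 and uterine replicate 3 inside the oviductal range. By abundance miR-10a-5p ranked 7 to 14 among oviductal miRNAs, and its uterine ranks were 2, 8 and 5 in replicates 12, 3 and 4, while miR-10b-5p ranked 7 to 13 and 4, 5 and 3.

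After TMM scaling, which the test uses, the groups no longer overlapped for either miRNA. miR-10a-5p then ranged from 14854 to 28967 CPM in the oviductal libraries, with a median of 23839.6. Its scaled level was 67786, 33834 and 45859.5 CPM in uterine replicates 12, 3 and 4. miR-10b-5p ranged from 15435 to 33224 scaled CPM in the oviductal libraries, with a median of 26404. Its scaled level was 66225, 42618 and 63229.5 CPM in uterine replicates 12, 3 and 4. The lowest uterine library was uterine replicate 3 in both cases, and it changed sides only through the scaling. As a share of the reads outside miR-148a-3p, miR-10b-5p likewise did not overlap, at 2.25% to 4.77% in oviductal and 6.22% to 10.8% in uterine libraries, nor did miR-10a-5p, at 2.16% to 4.49% against 4.93% to 9.69%. How many of all miRNAs separate on this denominator was not counted, so these ranges are description only.

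**Figure D1:**
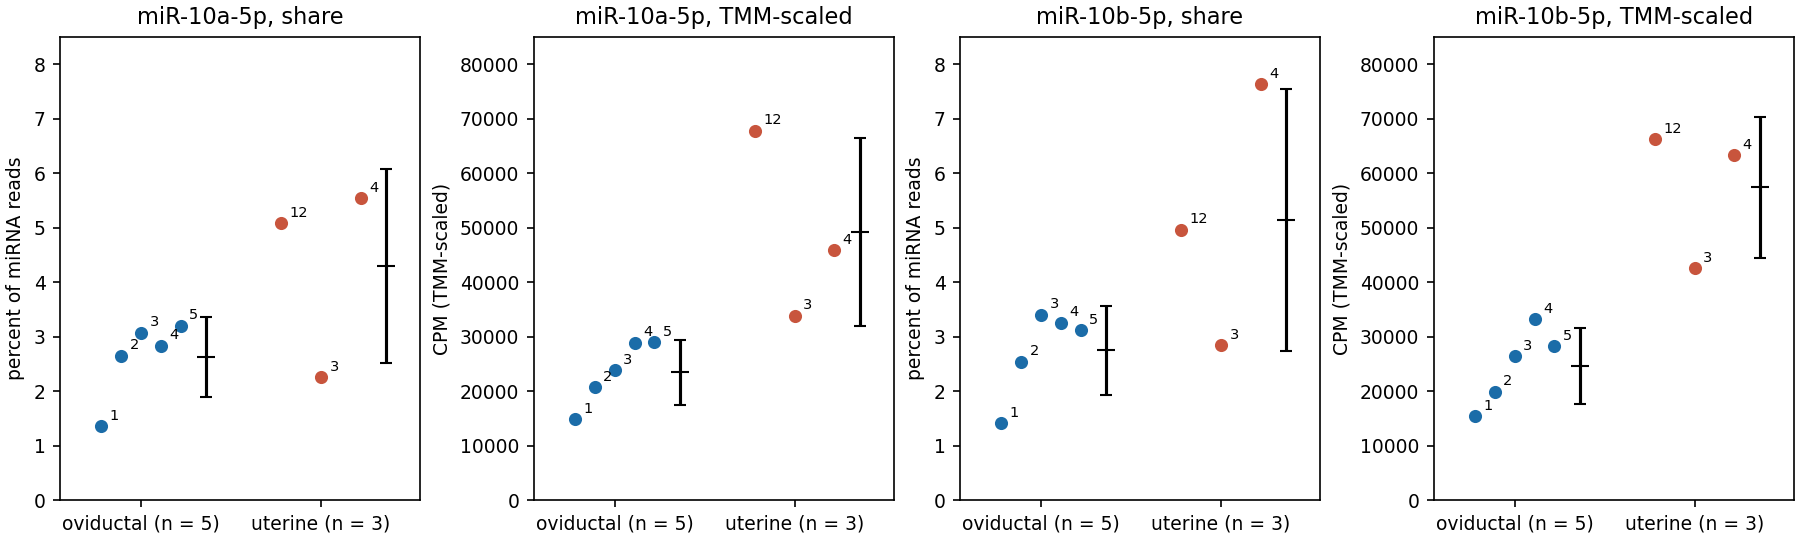
Levels of miR-10a-5p and miR-10b-5p in each library, as percent of miRNA reads and as CPM after TMM scaling. Points are libraries labelled with their replicate number, and bars give mean ± SD (n = 5 oviductal, n = 3 uterine). Uterine replicate 3 lies inside the oviductal range as a share of reads and above it after scaling.

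The edgeR fold change of miR-10b-5p was 2.33 (95% interval 1.35 to 4.02), a log2 fold change of 1.22 ± 0.37 (SE). That of miR-10a-5p was 2.09 (95% interval 1.20 to 3.65), a log2 fold change of 1.07 ± 0.38 (SE). Mean unscaled levels of miR-10b-5p were 51446.5 ± 24046 CPM over the 3 uterine libraries and 27472 ± 8134 CPM over the 5 oviductal ones (SD). For miR-10a-5p they were 42895 ± 17792 against 26241.5 ± 7374 CPM (SD, same libraries). The intervals are for each miRNA alone. With adjustment over all 178 tested miRNAs the edgeR p was 0.107 for miR-10b-5p and 0.163 for miR-10a-5p, so neither difference passed the threshold of 0.05. In the list ordered by p they stood at places 7 and 13. More vesicles from a given source and more miRNA in each vesicle cannot be told apart in such pools.

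Against the background of all tested miRNAs, 0 of the 6 profiles passed the adjusted threshold of edgeR, where 1.69% of all tested miRNAs did. DESeq2 and limma-voom also called 0 of the 6, where they called 11 and 1 of all 178. At shares this low, 0 of 6 says little about the members. At an unadjusted p under 0.05, 2 of the 6 were higher in uterine vesicles, miR-10a-5p and miR-10b-5p, where 10.1% of all tested miRNAs were. The same 2 were those with scaled values above every oviductal library, which 7.87% of tested miRNAs had. All 6 log2 fold changes were above 0, where 48.9% of tested miRNAs were, with a median of 0.82 beside -0.02 over all tested miRNAs. Of these signs, those of miR-10a-3p, miR-10b-3p, miR-196a-5p and miR-196b-5p did not hold under every setting. miR-10a-3p turned to -0.42 without uterine replicate 12. Without that library 3 of the 6 were above 0, with a median of 0.23 beside 0.01 over all tested miRNAs. The signs of miR-10a-5p and miR-10b-5p may also not be independent, since their sequences are nearly the same. miR-10b-3p turned to -0.032 with RLE size factors, and by limma-voom with quality weights the values were -1.65, -0.055 and -0.013 for miR-10b-3p, miR-196a-5p and miR-196b-5p.

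**Figure D2:**
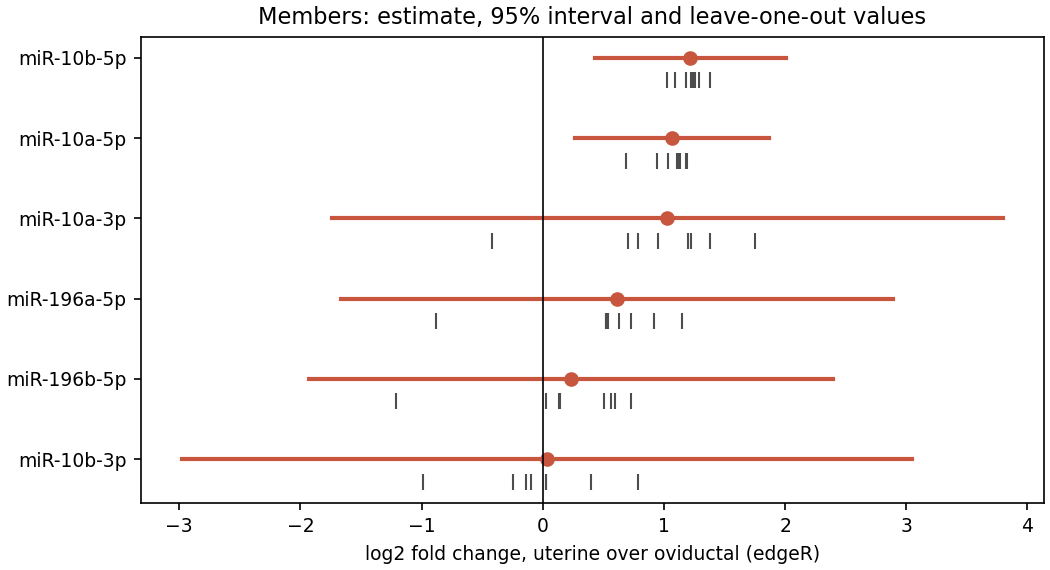
Log2 fold change of each member profile, uterine over oviductal vesicles, from edgeR. Circles are estimates, thick lines 95% intervals, and short ticks the estimates after leaving out each of the 8 libraries in turn. The intervals of miR-10b-5p and miR-10a-5p lie above 0 and those of the other 4 span it.

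Whether the pair passed depended on the setting. Among the 77 miRNAs with at least 10 reads in every library, the edgeR adjusted p was 0.0224 for miR-10b-5p and 0.0468 for miR-10a-5p, at log2 fold changes of 1.34 and 1.18. The adjusted p of miR-10b-5p was also 0.0256 with no filter, 0.0306 with upper-quartile factors and 0.0336 without uterine replicate 3. Its range over all alternatives was 0.0224 to 0.998. More of all tested miRNAs passed where members did. The counts were 8 of 77 with at least 10 reads in every library and 13 of 354 with no filter. They were 6 of 178 with upper-quartile factors and 27 of 200 without uterine replicate 3, beside 3 of 178 in the reported setting. Leaving out uterine replicate 12 lowered the log2 fold changes to 1.03 and 0.68, with edgeR adjusted p of 0.377 and 0.569. Scaled by library totals alone, miR-10a-5p had a log2 fold change of 0.71 (edgeR p 0.0821, adjusted p 0.356). It thus missed 0.05 even before adjustment. miR-10b-5p was at 0.91 in that setting (edgeR p 0.0301, adjusted p 0.206). That setting moved the median of all tested miRNAs from -0.02 to -0.31, so the excess over the median was of similar size. Both miRNAs were higher in uterine vesicles in each of the 22 alternatives.

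**Figure D3:**
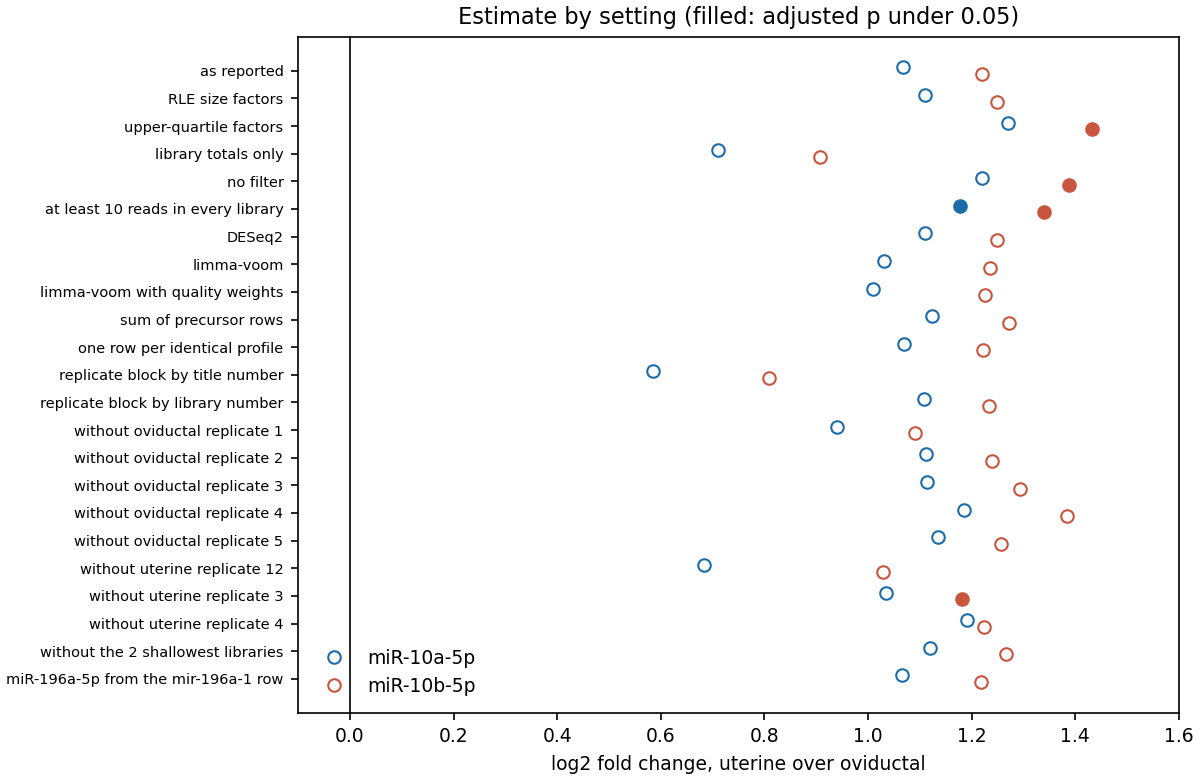
Log2 fold change of miR-10a-5p (blue) and miR-10b-5p (red), uterine over oviductal, under the reported setting and 22 alternatives. Filled circles mark an adjusted p under 0.05. All values lie above 0, between 0.59 and 1.43.

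miR-10a-5p and miR-10b-5p come from different HOX clusters but have nearly the same mature sequence and the same seed. The sources used here do not say how reads that fit both were assigned, so their separate values are uncertain. Of the reads of the pair, miR-10b-5p held 51.0%, 48.9%, 52.6%, 53.5% and 49.3% in oviductal replicates 1 to 5. It held 49.4%, 55.7% and 58.0% in uterine replicates 12, 3 and 4. Both were close to equal in most libraries, and miR-10b-5p was ahead in 5 of the 8. The lead in uterine replicates 3 and 4 was larger than counting error, with 95% Clopper-Pearson intervals of 55.1% to 56.4% and 57.5% to 58.5%. The oviductal replicate nearest to them, replicate 4, had 52.7% to 54.3%. Its lead was thus also beyond counting error, as were those of oviductal replicates 1 (50.1% to 51.8%) and 3 (50.7% to 54.4%). Oviductal replicate 5 had a deficit beyond it (48.8% to 49.9%). These intervals cover counting error only, since reads without molecular identifiers are not independent molecules. The log2 ratio of miR-10b-5p to miR-10a-5p was 0.25 ± 0.26 in uterine (SD, n = 3) and 0.06 ± 0.11 in oviductal libraries (SD, n = 5). The difference of 0.19 did not pass an exact two-sided permutation test (p = 0.161, adjusted p = 0.241 over 3 ratios), for which the smallest p is 0.0179.

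The profile of each of the pair over the 8 libraries was compared with those of the miRNAs with at least 10 reads everywhere, as the root mean square difference of scaled log2 CPM after centring. The nearest profile to each was the other, at 0.18 log2 units, where the median distance was 0.99 from miR-10a-5p and 1.02 from miR-10b-5p. How reads that fit both were assigned is not known, so this nearness may not be independent of their nearly equal sequences. The next 2 places were held by miR-21-5p, an abundant miRNA of many tissues, at 0.40 from miR-10a-5p and 0.49 from miR-10b-5p, and by miR-27b-3p, of the miR-23b cluster, at 0.45 and 0.43. miR-27b-3p had a log2 fold change of 1.04 ± 0.43 (SE, edgeR adjusted p 0.188) and miR-21-5p of 0.60 ± 0.39 (SE, edgeR adjusted p 0.517). For miR-196a-5p no profile was as near, but it had only 6 and 9 reads in oviductal replicates 2 and 3. It thus missed the minimum of 10 reads set for the compared miRNAs, and counting error adds to its distances. Its closest were miR-12090-3p at 0.62, miR-21-5p at 0.70 and miR-25-3p, of the miR-106b cluster, at 0.71.

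The miR-196 miRNAs were present at low levels in both fluids and showed no difference beyond the spread of the libraries. miR-196a-5p was at 63.4, 126, 211, 62.8 and 82.6 CPM in oviductal replicates 1 to 5, from 28, 6, 9, 16 and 47 reads. It was at 241, 43.8 and 48.1 CPM in uterine replicates 12, 3 and 4, from 56, 21 and 14 reads. Only uterine replicate 12 was above the oviductal range, and the other uterine libraries were below it. After TMM scaling uterine replicate 3, at 65.7 CPM, lay inside the oviductal range of 64.1 to 164 CPM. The edgeR fold was 1.53 with a 95% interval of 0.316 to 7.43 (adjusted p 0.842), which leaves room for a large change in either direction. Leaving out uterine replicate 12 turned the log2 fold change from 0.62 to -0.88.

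The table lists miR-196a-5p on 2 rows, one for each precursor copy. The row of mir-196a-2, used here, has 197 reads in all and that of mir-196a-1 has 165. The rows agree in oviductal replicate 4 and in uterine replicates 3 and 4, and differ most in uterine replicate 12, with 56 against 30 reads. With the mir-196a-1 row in its place, a comparison added after the values were seen, the log2 fold change was -0.059. The direction for miR-196a-5p thus depended on the row.

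miR-196b-5p was at 97.4, 63.0, 281, 306 and 70.3 CPM in oviductal replicates 1 to 5, from 43, 3, 12, 78 and 40 reads. It was at 51.6, 33.3 and 494 CPM in uterine replicates 12, 3 and 4, from 12, 16 and 144 reads. Before scaling, uterine replicate 4 had the highest value of all libraries and uterine replicates 3 and 12 the lowest. After TMM scaling uterine replicates 3 and 12, at 50.1 and 68.9 CPM, lay inside the oviductal range of 49.3 to 313 CPM. The edgeR fold was 1.18 with a 95% interval of 0.263 to 5.27 (adjusted p 0.964), and leaving out uterine replicate 4 gave a log2 fold change of -1.21. miR-196b-5p made up 17.6% of the reads of miR-196a-5p and miR-196b-5p in uterine replicate 12 (95% Clopper-Pearson interval 9.47% to 28.8%) and 91.1% in uterine replicate 4 (85.6% to 95.1%). The oviductal libraries ran from 33.3% in replicate 2, on 9 reads, to 83.0% in replicate 4.

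The 3p arms, the opposite strands of the miR-10 precursors, had few reads, from 0 to 58 in a library. miR-10a-3p had 40, 0, 11, 1 and 37 reads in oviductal replicates 1 to 5 and 56, 8 and 31 in uterine replicates 12, 3 and 4. miR-10b-3p had 58, 1, 3, 2 and 36 oviductal reads and 10, 0 and 42 uterine reads in the same order. Oviductal replicate 4 had 1 and 2 reads of these arms in 254590 reads, although its 5p arms were as abundant as in its group. The 3p arm was never above 0.920% of the reads of its precursor, the value for miR-10b in oviductal replicate 1 (95% Clopper-Pearson interval 0.699% to 1.19%). By the same kind of interval, the share of 0 for miR-10b in uterine replicate 3 allows up to 0.0271%, and that for miR-10a in oviductal replicate 2 up to 0.292%. So the 5p arm was the main product of both precursors in every library, and the size of its excess varied beyond counting error within the groups.

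The mean level of miR-10a-3p over the 3 uterine libraries was 121 ± 113 CPM (SD), beside 83.4 ± 105 CPM over the 5 oviductal ones, and miR-10b-3p had means of 62.4 ± 74.0 and 58.8 ± 48.6 CPM. Their edgeR folds of 2.04 and 1.03 had 95% intervals of 0.299 to 13.9 and 0.127 to 8.27 (adjusted p 0.802 and 0.989), and the log2 fold change of miR-10a-3p, 1.03, was -0.42 without uterine replicate 12. The log2 ratio of miR-10b-5p to miR-10b-3p, with 0.5 reads added to each, was 11.3 ± 3.03 in uterine and 9.14 ± 1.79 in oviductal libraries (exact two-sided permutation p = 0.268, adjusted p = 0.268; SD, n = 3 and n = 5). That of miR-196a-5p to miR-10b-5p was -9.19 ± 1.46 and -8.02 ± 0.72, a difference of -1.17 (exact two-sided permutation p = 0.161, adjusted p = 0.241). Every 5p value of the miR-10 pair was at least 13612 CPM and no other member exceeded 494 CPM in any library. Among the other 4 profiles the order of mean levels differed between the fluids, and neighbours in it differed by less than their spread. Reads of different miRNAs are not copies, since adaptor ligation favours some sequences.

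**Figure D4:**
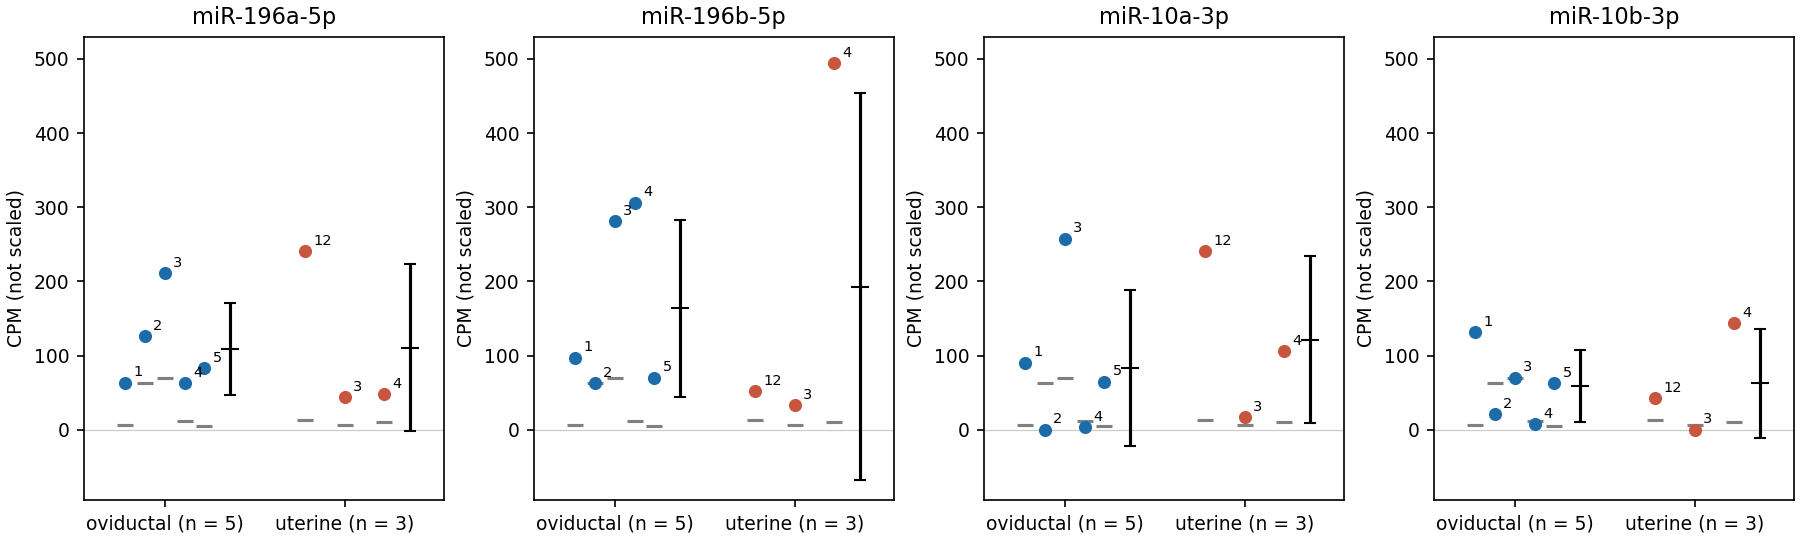
CPM of the 4 less abundant member profiles in each library, not scaled. Points are libraries labelled with their replicate number, bars mean ± SD, and grey dashes the level that 3 reads stand for in each library. The groups overlap in all 4, and uterine replicate 4 for miR-196b-5p is the highest point at 494 CPM.

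The 6 profiles together held 2.81%, 5.21%, 6.56%, 6.13% and 6.35% of reads in oviductal replicates 1 to 5 and 10.1%, 5.10% and 13.3% in uterine replicates 12, 3 and 4. Nearly all of this was the 5p pair, while the miR-196 miRNAs held 0.0153% to 0.0492% and 0.00771% to 0.0542%. The mean difference between the fluids was 4.07 percentage points, given without a test because the members were chosen with results known. It was 2.185 without uterine replicate 4, 6.26 without uterine replicate 3, and 8.65 with miR-148a-3p left out of the denominator.

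The miR-99 and miR-100 miRNAs belong to the same ancient family as miR-10, and miR-125b is made from clusters with them, outside the HOX clusters. Neither miR-99b-5p nor miR-125a-5p was among the deposited names. The abundant miR-99a-5p ran the other way, with 7.09% to 9.57% of oviductal reads and 0.851%, 3.44% and 8.28% in uterine replicates 12, 3 and 4. Its log2 fold change was -0.83 ± 0.49 (SE, edgeR adjusted p 0.461), that of miR-125b-5p -0.85 ± 0.46 (SE, edgeR adjusted p 0.426) and that of miR-100-5p -0.09 ± 0.52 (SE, edgeR adjusted p 0.978).

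Within a library, a ratio of 2 miRNAs needs no scaling. There were 0.142, 0.374, 0.390, 0.325 and 0.359 reads of miR-10a-5p per read of miR-99a-5p in oviductal replicates 1 to 5, and 5.97, 0.654 and 0.669 in uterine replicates 12, 3 and 4. For miR-10b-5p the ratios were 0.148, 0.359, 0.432, 0.374 and 0.3495 in oviductal and 5.83, 0.824 and 0.922 in uterine libraries. All 3 uterine libraries exceeded all 5 oviductal ones in both ratios, and uterine replicate 12 stood far above the rest. The log2 ratios differed by 2.20 for miR-10a-5p and 2.39 for miR-10b-5p (exact two-sided permutation p = 0.0179 for each, the smallest that 56 splits can give, and adjusted p = 0.0179 over both). Without uterine replicate 12 the differences were 1.14 and 1.48. Both ratios share miR-99a-5p and were chosen after the values of their parts were seen. Their p-values therefore only describe the separation, and no conclusion is drawn from them. Of the summed reads of miR-10a-5p, miR-10b-5p, miR-99a-5p, miR-100-5p and miR-125b-5p, the miR-10 pair made up 20.5% to 41.6% in the oviductal group. In uterine replicates 12, 3 and 4 its part was 89.1%, 53.8% and 59.1%. The sum of the 5 averaged 15.1% ± 1.46 in the oviductal fluid (SD, n = 5) and 14.3% ± 6.95 in the uterine fluid (SD, n = 3).

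**Figure D5:**
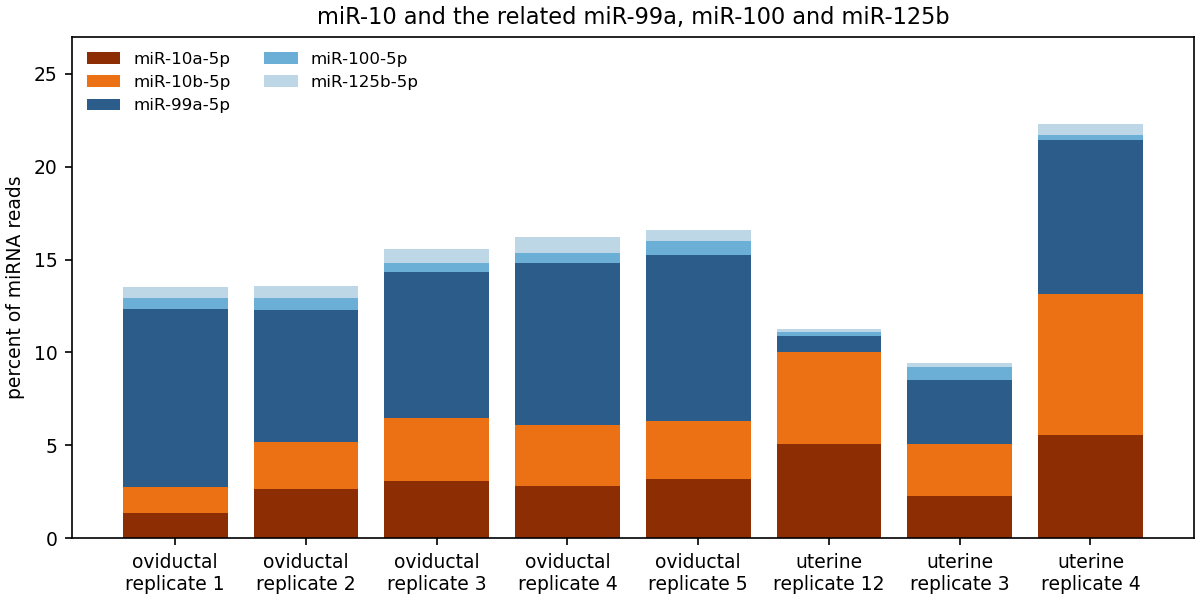
Percent of miRNA reads held by miR-10a-5p, miR-10b-5p (brown and orange), miR-99a-5p, miR-100-5p and miR-125b-5p (blues) in each library, stacked. The miR-10 pair is the larger part in the 3 uterine libraries and the smaller part in the 5 oviductal ones, and in uterine replicate 12 miR-99a-5p is down to 0.851%.

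Lists of miRNAs known from certain cell types were summed in the same libraries. The list of 8 smooth and striated muscle miRNAs, 7 of them with reads (miR-133b-3p had none), held 0.388% to 0.477% of oviductal reads and 2.57%, 0.569% and 4.69% in uterine replicates 12, 3 and 4. Of 7 listed epithelial miRNAs, 4 had reads, and miR-200a-3p, miR-200b-3p and miR-429-3p were not among the deposited names. The 4 held 5.41% to 6.18% of oviductal and 0.722% to 3.01% of uterine reads. Of 7 listed for multiciliated cells, 6 had reads, and miR-449c-5p was not among the deposited names. The 6 held 2.77% to 6.12% and 0.495% to 3.38%. The 4 erythrocyte miRNAs, all with reads, held 0.0922% to 0.288% and 0.123% to 0.768%. The 6 leukocyte miRNAs, 5 with reads (miR-142-5p had none), held 0.100% to 0.235% and 0.0786% to 0.349%, and the liver miRNA miR-122-5p held 0.00615% to 0.0588% and 0.0299% to 0.306%. Among the uterine libraries the muscle, erythrocyte and leukocyte lists were each lowest in replicate 3, as were the shares of miR-10a-5p and miR-10b-5p. The epithelial and multiciliated lists were highest there. The liver miRNA was lowest in replicate 4, at 0.0299% against 0.0579% in replicate 3. Not all members of a list ran alike. In the epithelial list the log2 fold change was 0.30 for miR-141-3p, beside -1.13 for miR-200c-3p, -1.31 for miR-375-3p and -2.24 for miR-205-5p. In the multiciliated list it was 1.26 for miR-449a-5p and -1.05 to -0.14 for the miR-34b and miR-34c arms. The part of any list in the difference of the pair was not tested.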

How the data were processed

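Small RNA of vesicles from 5 oviductal and 3 uterine pools was sequenced. The authors deposited whole-number counts, a row per pairing of miRNA and precursor, beside RPM, named as normalized per the file headers. RPM matched counts over their column sum times 1000000 to within 0.005 and served only for this check. The submitters' processing notes name OryCun2.0 as build and FastQC as a tool, and no aligner or counter is given here. Each name was represented by its row of most reads, and CPM were computed over these rows.

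Counts were tested with edgeR 4.0.16 (quasi-likelihood, robust, TMM, filterByExpr, Benjamini-Hochberg) under R 4.3.3, over all 178 tested miRNAs. The SE is the log2 fold change over the square root of F. For ratios, an exact two-sided permutation test ran over all 56 assignments of 3 libraries. Groups were taken from the titles. Alternatives covered scaling, filter, tool (DESeq2 1.42.0, limma 3.58.1), precursor rows, replicate blocks and removal of each library. The procedure was run on simulated data with changes larger than those of the miR-10 pair and with independent libraries. That run does not show its power for changes of the size seen here, or for pools that share does. Named were all members, the 3 nearest profiles of miR-10a-5p, miR-10b-5p and miR-196a-5p, related families and miR-148a-3p. Members, lists and tests were chosen with earlier results of these data known.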

Additional observations from a re-analysis of the deposited data

How the results depend on the processing

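With 3 uterine libraries and 2 shallow oviductal ones, precision for the 4 less abundant members is limited, and single libraries set their direction. Where a cause is not given below, the cause was not tested. Of all tested miRNAs 3 were past the threshold in edgeR. That count was 6 with upper-quartile factors, 1 with library totals, 13 with no filter, 8 with at least 10 reads in every library, 11 by DESeq2, 1 by limma-voom, 7 with precursor rows summed, 0 without the 2 shallowest libraries (20 at an unadjusted p under 0.05) and 1 to 27 without each library in turn. The count of 27 arose without uterine replicate 3, that of 9 without uterine replicate 4, and that of 1 without oviductal replicate 2 or uterine replicate 12.

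With a replicate block by the number in the title, or by that in the library name, the count was 0 (8 and 11 at an unadjusted p under 0.05). Same-numbered libraries did not deviate together (correlations of -0.15 and -0.10 for numbers 3 and 4, and -0.15 for number 1), and the numbers were taken as names only. The correlations cannot show whether such pools share does, since no value was available for pools known to share them. The block by title leaves little to estimate the spread from. With the block by title number the log2 fold changes were 0.81 for miR-10b-5p, 0.59 for miR-10a-5p, -0.13 for miR-10b-3p, -0.99 for miR-196a-5p and -0.82 for miR-196b-5p. With the block by library number they were 1.23, 1.11, -0.999 for miR-10b-3p and -0.75 for miR-196b-5p.

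miR-10b-5p passed at 1.43 with upper-quartile factors, 1.39 with no filter, 1.34 with 10 reads in every library and 1.18 without uterine replicate 3, and miR-10a-5p at 1.18 with 10 reads in every library. The value of miR-10b-3p turned to -0.032 with RLE factors, -0.018 by DESeq2, -1.16 by limma-voom, -1.65 with quality weights and -0.22 without the 2 shallowest libraries. With quality weights miR-196a-5p was at -0.055 and miR-196b-5p at -0.013, and miR-196a-5p was at -0.059 from the mir-196a-1 row. Leaving out each library gave log2 fold changes of 1.03 to 1.38 for miR-10b-5p, 0.68 to 1.19 for miR-10a-5p, -0.42 to 1.75 for miR-10a-3p, -0.99 to 0.78 for miR-10b-3p, -0.88 to 1.15 for miR-196a-5p and -1.21 to 0.73 for miR-196b-5p. The 3 ratios between members kept their direction and did not pass in any of the 11 alternatives. The differences of the log2 ratios to miR-99a-5p were 1.14 to 2.74 for miR-10a-5p and 1.48 to 2.89 for miR-10b-5p without each library. Without the 2 shallowest they were 2.43 and 2.61 with a p of 0.100, the smallest that 3 against 3 libraries allow. The difference in summed share was 8.65 percentage points with miR-148a-3p out of the denominator and 2.185 to 6.26 without each library.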
